A study of Mus musculus with 7 samples.

Results

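Lipid droplets are the organelles in which cells keep triacylglycerol, and the proteins on their surface decide how readily that fat can be broken down. The transcripts of 10 genes of this machinery were followed across mouse tissues: 6 genes of the droplet coat (Plin1, Plin2, Plin3, Plin4, Plin5 and Cidec), 3 lipase genes (Pnpla2, Lipe and Mgll) and 1 lipase inhibitor gene (G0s2). They were taken by name from the 50354 gene names in the deposited expression table, and all 10 reached at least 1 FPKM in at least 1 tissue. The levels are FPKM, fragments scaled for transcript length and library size, so genes can be compared within a library. Comparisons between tissues also depend on how the libraries were scaled to each other, and some results below changed under other scalings.

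Libraries of rRNA-depleted total RNA were made from 7 tissues of C57BL/6 mice of wild-type (wt) genotype on the diet labelled NCD at 36 weeks of age. They comprised 3 fat depots, namely brown (BAT), subcutaneous (SCAT) and visceral adipose tissue (VAT), and 4 other tissues, namely skeletal muscle, liver, kidney and cortex, with 1 library each and no treatment. The labels do not say whether the tissues came from the same animal. With 1 library per tissue, no difference between tissues has a replicate check, no p-value was computed, and neighbours in an order of levels cannot be separated by their spread. In whole tissue, fewer cells of a type and less RNA per cell cannot be told apart.

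The perilipins (Plin1 to Plin5) are a family of droplet coat proteins. Plin1 is the main coat protein of adipocytes, where it holds back lipolysis until protein kinase A phosphorylates it, while Plin2 and Plin3 coat droplets in most cell types and Plin5 is known for tissues that oxidise much fat. Cidec (also called Fsp27) promotes the fusion of small droplets into the single large droplet of white adipocytes. Stored triacylglycerol is hydrolysed in sequence by Pnpla2 (ATGL), Lipe (hormone-sensitive lipase) and Mgll (monoacylglycerol lipase), and G0s2 binds and inhibits Pnpla2.

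To show what the regulatory DNA of these genes looks like, RefSeq promoter windows of GRCm38.p6 were read for all 10 genes, which have 14 windows. Each window runs from 250 bases before to 50 bases after a transcript start, and the 250 upstream bases are printed 5′ to 3′ on the strand of the gene for every window of 5 genes. Plin1, Cidec and Lipe are shown because all fat depots were above all other tissues for them, and Plin2 and Plin5 because BAT and liver were their highest tissues, as they were for Plin3 and G0s2. Capitals mark matches on either strand to the nuclear receptor half-site (AGGTCA), the E-box (CACGTG), the CCAAT box (CCAAT) or the GC box (GGGCGG).
Plin1, chr7:79732777-79733026, minus strand: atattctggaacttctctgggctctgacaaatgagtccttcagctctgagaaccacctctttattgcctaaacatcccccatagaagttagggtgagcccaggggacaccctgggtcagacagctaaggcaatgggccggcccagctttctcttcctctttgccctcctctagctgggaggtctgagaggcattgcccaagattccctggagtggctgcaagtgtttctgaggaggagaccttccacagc
Cidec, chr6:113435761-113436010, minus strand: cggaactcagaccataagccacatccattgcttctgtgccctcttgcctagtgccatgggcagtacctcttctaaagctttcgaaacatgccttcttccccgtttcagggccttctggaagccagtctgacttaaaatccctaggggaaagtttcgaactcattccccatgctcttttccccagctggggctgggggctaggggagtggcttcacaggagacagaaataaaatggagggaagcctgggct
Cidec, chr6:113434765-113435014, minus strand: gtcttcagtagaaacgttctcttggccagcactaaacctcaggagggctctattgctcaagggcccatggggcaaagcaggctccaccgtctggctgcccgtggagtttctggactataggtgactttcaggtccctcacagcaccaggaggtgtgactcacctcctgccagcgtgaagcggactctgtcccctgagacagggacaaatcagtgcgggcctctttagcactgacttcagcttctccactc
Lipe, chr7:25395988-25396237, minus strand: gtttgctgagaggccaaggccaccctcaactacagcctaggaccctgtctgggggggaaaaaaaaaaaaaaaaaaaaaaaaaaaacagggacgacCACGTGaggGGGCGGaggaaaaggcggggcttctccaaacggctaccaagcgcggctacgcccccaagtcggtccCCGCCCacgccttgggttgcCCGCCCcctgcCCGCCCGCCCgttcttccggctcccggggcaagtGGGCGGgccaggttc
Lipe, chr7:25390113-25390362, minus strand: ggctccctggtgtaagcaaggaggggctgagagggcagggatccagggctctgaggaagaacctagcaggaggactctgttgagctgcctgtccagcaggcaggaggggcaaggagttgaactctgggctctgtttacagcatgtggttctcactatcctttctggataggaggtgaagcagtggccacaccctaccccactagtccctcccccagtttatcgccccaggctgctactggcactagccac
Plin2, chr4:86670060-86670309, minus strand: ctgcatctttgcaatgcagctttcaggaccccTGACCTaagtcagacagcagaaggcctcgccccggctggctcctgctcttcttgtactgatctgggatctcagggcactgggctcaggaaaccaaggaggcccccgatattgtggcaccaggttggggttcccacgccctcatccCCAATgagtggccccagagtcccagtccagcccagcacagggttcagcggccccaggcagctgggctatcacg
Plin5, chr17:56117549-56117798, minus strand: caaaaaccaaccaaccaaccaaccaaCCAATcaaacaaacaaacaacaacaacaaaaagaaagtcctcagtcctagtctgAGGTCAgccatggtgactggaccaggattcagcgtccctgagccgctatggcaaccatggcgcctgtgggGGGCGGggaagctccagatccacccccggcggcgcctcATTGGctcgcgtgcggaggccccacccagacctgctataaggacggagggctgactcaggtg
Plin5, chr17:56117299-56117548, minus strand: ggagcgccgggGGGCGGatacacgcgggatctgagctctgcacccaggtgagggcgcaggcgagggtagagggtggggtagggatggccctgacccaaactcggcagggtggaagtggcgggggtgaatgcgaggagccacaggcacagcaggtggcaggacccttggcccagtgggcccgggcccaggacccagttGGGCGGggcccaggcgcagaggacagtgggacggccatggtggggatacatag

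The half-site was found in windows of Plin2 and Plin5 and of no other gene of the 10, and 16.3% of all 32851 windows hold it. The E-box was present in windows of Lipe, Mgll and Plin2 (7.15% of all windows), where in Plin2 it spans the transcript start and so lies only partly in the printed bases. CCAAT boxes occurred in Plin2, Plin3, Plin4 and Plin5 (37.4%), and GC boxes in 9 of the 14 windows (35.7%). None of the 14 windows held 2 half-sites in the same direction with 1 base between, the DR1 element bound by PPAR receptors, which contains the single half-site and occurs in 0.0396% of all windows. The looser DR1 with AGGNCA half-sites (0.381%) was also in none of the 14, nor was the TATA box (TATAAA, 13.6%). The window of Plin1, both windows of Cidec and the second window of Lipe have no match to any of these letters. Such matches describe the letters of the windows only.

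The libraries carried the markers of their labelled tissues wherever these had a value, and some also held markers of other cell types. The liver markers Alb and Serpina1c had no value in liver, and the muscle markers Acta1 and Myh4 had none in muscle. The 6 adipocyte markers Adipoq, Lep, Fabp4, Retn, Cfd and Adig summed to between 5319 and 10138 FPKM in the 3 fat depots, to 658 FPKM in muscle and to at most 87.4 FPKM in liver, kidney and cortex, with none listed at 0 in any library. Ucp1, the uncoupling protein of brown fat, had 6552 FPKM in BAT and at most 10.6 FPKM elsewhere. The VAT library held Alb of liver at 253 FPKM and 3 epididymis markers that summed to 2639 FPKM. The SCAT library held lymphocyte markers that summed to 89.5 FPKM and pancreatic acinar markers that summed to 77.3 FPKM, and the BAT library held Ckm of muscle at 166 FPKM, against 8592 FPKM in muscle. Their part in the results below was not tested.

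Across the 10 genes, BAT was the tissue of highest expression. Under the deposited scaling, 9 of 10 genes had their highest FPKM in BAT, against 14.1% of the 19087 named genes with at least 1 FPKM in any tissue, and Plin4 had its highest in VAT. Cortex was lowest for 7 of 10 genes, against 21.9% of all named genes, liver for Plin1, kidney for Plin4 and Mgll. The count of genes highest in BAT was 8 when libraries were scaled by median ratios or upper quartiles, because Cidec then had its highest level in VAT.

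**Figure D1:**
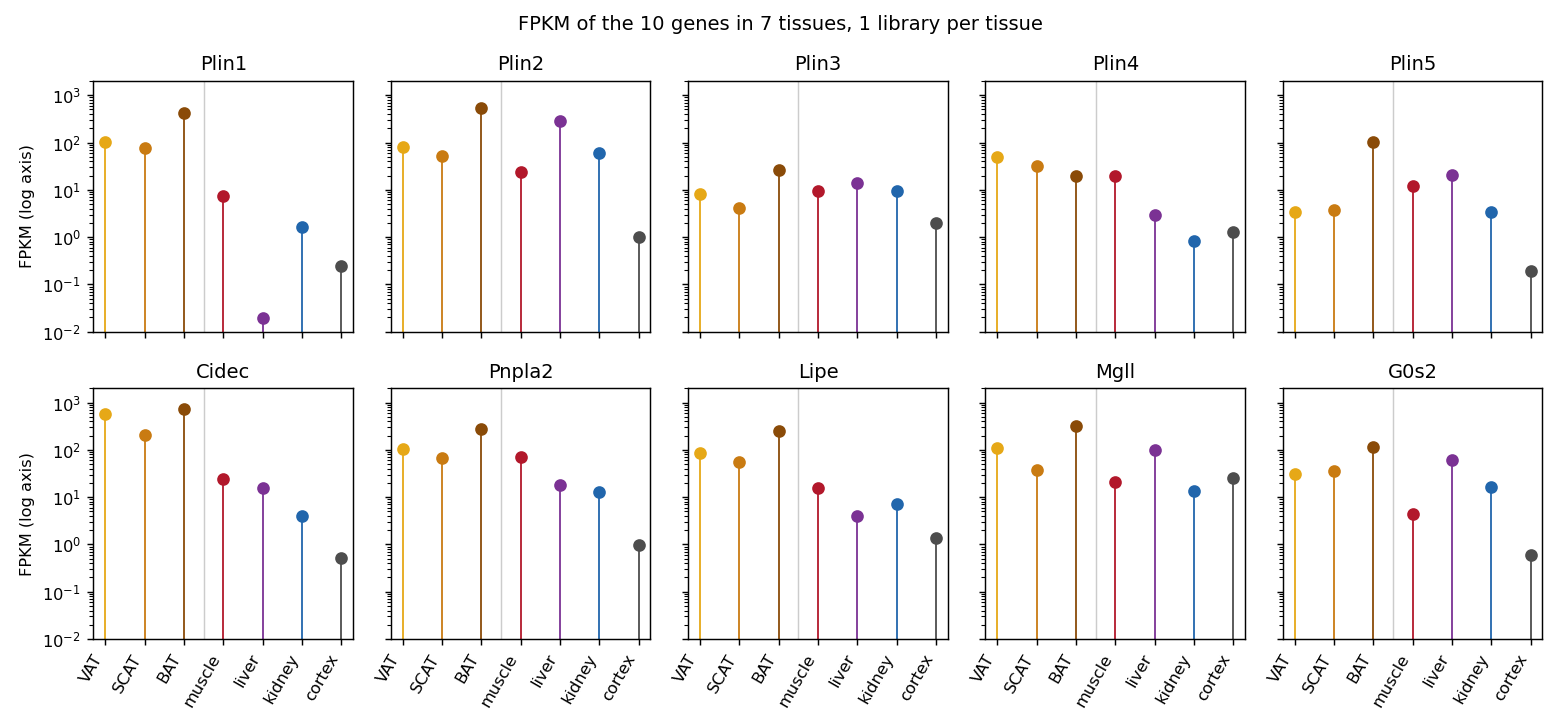
FPKM of each of the 10 genes on a log axis, with 1 panel per gene and 1 point per library, fat depots left of the grey line and the other tissues right of it. BAT is the highest point in 9 panels, and only Plin1, Cidec and Lipe have all 3 fat depots above all 4 other tissues.

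Plin1 was the coat gene with the widest range. Its gene lies on the minus strand at chr7:79720218-79732903 of GRCm38. Plin1 had 413 FPKM in BAT, 102 FPKM in VAT, 74.8 FPKM in SCAT, 7.41 FPKM in muscle, 1.64 FPKM in kidney, 0.244 FPKM in cortex and 0.0193 FPKM in liver. The fat depots did not overlap the other tissues, and the lowest depot, SCAT, was 10.1-fold above muscle. BAT exceeded VAT 4.03-fold and SCAT 5.52-fold, whereas the white depots differed only 1.37-fold. Of the 25 named genes whose lowest fat depot was at least 4-fold above the highest other tissue, Plin1 had rank 3 by the size of the gap, a log2 difference of 3.32.

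Cidec, the droplet fusion gene at chr6:113424634-113435760 on the minus strand, shared the fat pattern and reached the highest level of all 10 genes. It had 746 FPKM in BAT, 587 FPKM in VAT, 204 FPKM in SCAT, 24.7 FPKM in muscle, 15.3 FPKM in liver, 3.97 FPKM in kidney and 0.511 FPKM in cortex. SCAT, its lowest depot, was 8.26-fold above muscle, with rank 5 among the 25. Unlike Plin1, Cidec in VAT was within 1.27-fold of BAT under the deposited scaling and above BAT when the libraries were scaled by median ratios or upper quartiles. It was 2.88-fold higher in VAT than in SCAT, and its FPKM exceeded that of Plin1 5.72-fold in VAT, 2.72-fold in SCAT and 1.81-fold in BAT.

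Plin2 and Plin5, like Plin3 and G0s2, combined a high level in BAT with a liver level above both white depots. Plin2, at chr4:86648386-86670060 on the minus strand, had 550 FPKM in BAT, 287 FPKM in liver, 78.7 FPKM in VAT, 61.2 FPKM in kidney, 52.9 FPKM in SCAT, 24.2 FPKM in muscle and 0.995 FPKM in cortex. Liver was thus 3.65-fold above VAT and 5.43-fold above SCAT, and BAT was 1.91-fold above liver. Plin5, at chr17:56111601-56117596 on the minus strand, had 102 FPKM in BAT, 20.9 FPKM in liver, 11.8 FPKM in muscle, 3.73 FPKM in SCAT, 3.35 FPKM in VAT, 3.32 FPKM in kidney and 0.190 FPKM in cortex. Its levels in SCAT, VAT and kidney lay within 1.12-fold of each other, so their order rests on very little. The BAT level of Plin5 was 4.89-fold that of liver, 30.5-fold that of VAT and 27.4-fold that of SCAT, the largest ratios of BAT to the white depots among the 10 genes.

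Plin3, at chr17:56277476-56292873 on the minus strand, shared this order of BAT and liver but was the most evenly expressed of the 10 genes, with 26.5 FPKM in BAT, 13.9 FPKM in liver, 9.48 FPKM in muscle, 9.41 FPKM in kidney, 8.01 FPKM in VAT, 4.13 FPKM in SCAT and 1.97 FPKM in cortex. Its highest and lowest tissues differed 13.4-fold, while muscle and kidney differed 1.01-fold. Plin4 lies next to Plin5 on the same strand at chr17:56100591-56109803, yet it had 50.3 FPKM in VAT, 32.6 FPKM in SCAT, 19.6 FPKM in muscle, 19.2 FPKM in BAT, 2.89 FPKM in liver, 1.28 FPKM in cortex and 0.844 FPKM in kidney. It was the only one of the 10 genes below both white depots in BAT, where VAT was 2.63-fold and SCAT 1.70-fold higher. Muscle and BAT differed 1.02-fold, and BAT was the higher of them under either other scaling. Hdgfl2, a protein-coding gene, overlaps Plin4 on the opposite strand. In the deposited data the loci of Plin4 and Plin5 have the same bounds, and how fragments were split between them could not be checked.

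To see which perilipin made up the coat transcripts of each tissue, the FPKMs of Plin1 to Plin5 were summed within each library. Such shares do not depend on how the libraries were scaled to each other. The sum was 1111 FPKM in BAT, 325 FPKM in liver, 243 FPKM in VAT, 168 FPKM in SCAT, 76.5 FPKM in kidney, 72.5 FPKM in muscle and 4.68 FPKM in cortex. The white depots had nearly the same make-up, with Plin1 at 42.2% in VAT and 44.5% in SCAT, Plin2 at 32.4% and 31.5%, and Plin4 at 20.7% and 19.4%. In BAT, Plin2 led with 49.5%, followed by Plin1 with 37.2% and Plin5 with 9.20%, and Plin4 gave only 1.72%.

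Outside fat, liver and kidney perilipin transcripts were mostly Plin2, at 88.4% and 80.1%. The muscle library had the most mixed perilipin transcripts, in which Plin2 gave 33.4%, Plin4 27.0%, Plin5 16.3%, Plin3 13.1% and Plin1 10.2%. This library also held adipocyte transcripts, whose part in the mix was not tested. In cortex, where the sum was lowest, Plin3 led with 42.2% and Plin4 followed with 27.3%.

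**Figure D2:**
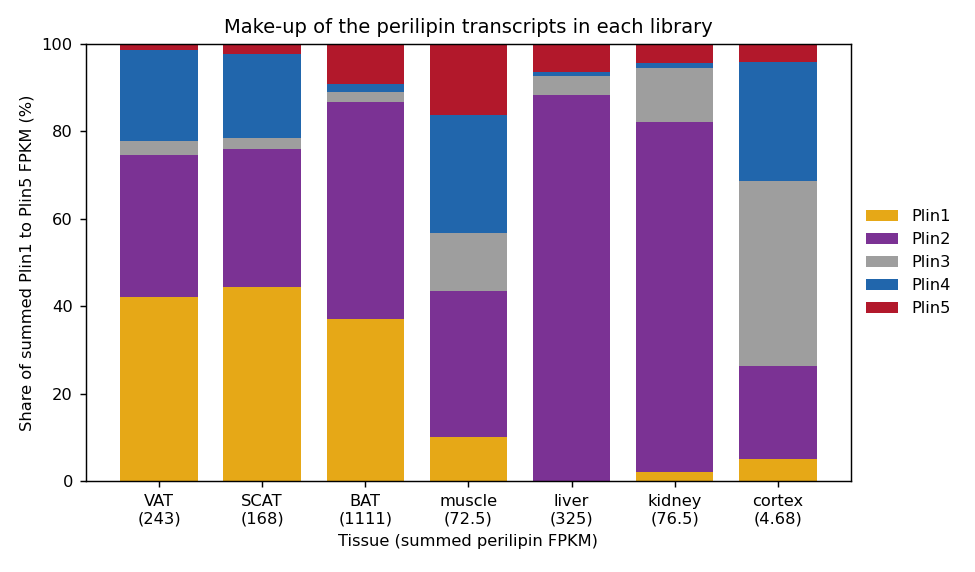
Share of each perilipin in the summed FPKM of Plin1 to Plin5 (%), 1 bar per library, with the summed FPKM in brackets under each tissue. Plin1 leads in VAT and SCAT, Plin2 in BAT, muscle, liver and kidney, and Plin3 in cortex.

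The lipases that start lipolysis were high in all fat depots and fell away differently in the other tissues. Pnpla2, at chr7:141455198-141460743 on the plus strand, had 272 FPKM in BAT, 104 FPKM in VAT, 69.2 FPKM in muscle, 68.4 FPKM in SCAT, 17.7 FPKM in liver, 12.9 FPKM in kidney and 0.975 FPKM in cortex. Muscle thus fell within the range of the fat depots, 1.01-fold above SCAT, although it was below SCAT under both other scalings. Lipe, at chr7:25379527-25398710 on the minus strand, had 249 FPKM in BAT, 84.3 FPKM in VAT, 56.6 FPKM in SCAT, 15.5 FPKM in muscle, 7.10 FPKM in kidney, 3.95 FPKM in liver and 1.37 FPKM in cortex. No other tissue reached the fat depots for Lipe, whose lowest depot was 3.65-fold above muscle.

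Mgll, which cleaves the last fatty acid and in brain also degrades the endocannabinoid 2-arachidonoylglycerol, had a broader pattern. At chr6:88724412-88828360 on the plus strand, it had 321 FPKM in BAT, 108 FPKM in VAT, 97.1 FPKM in liver, 37.5 FPKM in SCAT, 25.5 FPKM in cortex, 21.2 FPKM in muscle and 13.3 FPKM in kidney. In cortex it had the highest level of the 10 genes, followed by Plin3 at 1.97 FPKM. Mgll was 2.88-fold higher in VAT than in SCAT, the same ratio as for Cidec.

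G0s2, the inhibitor of Pnpla2, followed Plin2 more than the lipases. It lies at chr1:193272161-193273217 on the minus strand and had 116 FPKM in BAT, 62.1 FPKM in liver, 35.6 FPKM in SCAT, 30.6 FPKM in VAT, 16.6 FPKM in kidney, 4.44 FPKM in muscle and 0.612 FPKM in cortex. Liver was 2.03-fold above VAT, and muscle was below kidney, liver and all fat depots. The protein-coding gene Lamb3 overlaps G0s2 on the opposite strand, and the table has a second G0s2 locus of similar level there, which limits how surely fragments can be assigned to it.

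The balance of these transcripts was compared within each library. G0s2 exceeded Pnpla2 in liver (log2 ratio 1.81, or 3.51-fold) and in kidney (0.36), and was below it in VAT (-1.76), SCAT (-0.94), BAT (-1.23), cortex (-0.67) and muscle (-3.96). In muscle Pnpla2 was 15.6-fold above G0s2, the widest of the 7 ratios. With the FPKMs of both loci of each name summed, every one of these ratios rose by more than 1.5-fold: the cortex ratio changed sign to 0.39, SCAT came close to equality at -0.042, and BAT and VAT were at -0.33 and -0.79.

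Lipe and Pnpla2 were close to equal in the fat depots, with log2 ratios of Lipe over Pnpla2 of -0.13 in BAT, -0.27 in SCAT and -0.30 in VAT. In liver and muscle Lipe was lower, at -2.17 and -2.16. Cortex was the only tissue in which Lipe exceeded Pnpla2 (0.50), with both near 1 FPKM. Mgll over Lipe was 4.62 in liver and 4.21 in cortex, that is 24.6-fold and 18.5-fold, and between -0.59 and 0.90 in the other 5 tissues. Mgll accordingly gave 91.6% of the summed lipase FPKM in cortex and 81.8% in liver, whereas Pnpla2 gave 65.3% in muscle.

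**Figure D3:**
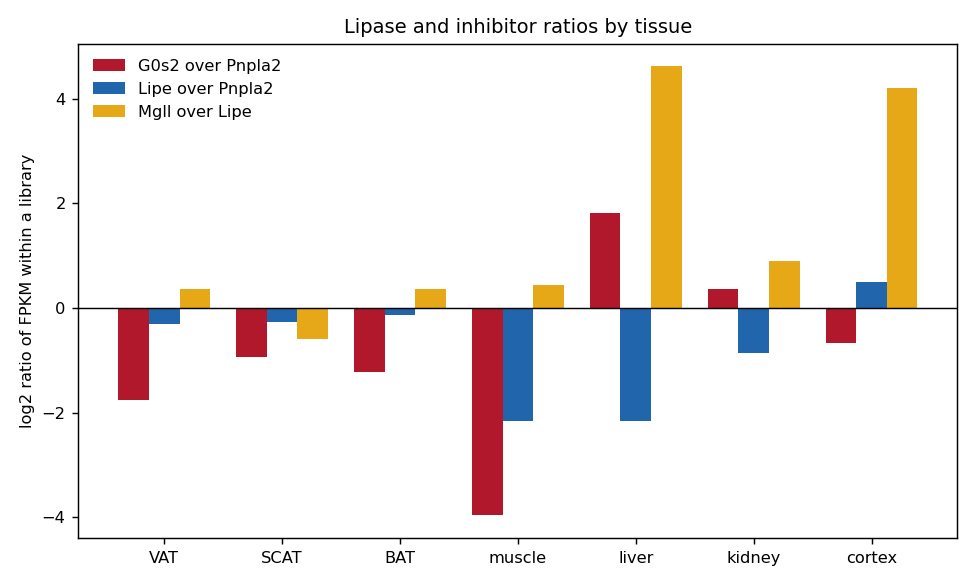
Log2 ratios of FPKM within each library for G0s2 over Pnpla2, Lipe over Pnpla2 and Mgll over Lipe, 1 group of bars per tissue. G0s2 over Pnpla2 is above 0 only in liver (1.81) and kidney (0.36), and Mgll over Lipe stands out in liver (4.62) and cortex (4.21).

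To set fat against the rest, each gene was scored for whether every fat depot was above every other tissue. This held for 3 of 10 genes (Plin1, Cidec and Lipe), against 3.11% of the 19087 named genes, and the reverse held for 0 of 10, against 3.46%. With a gap of at least 4-fold, Plin1 and Cidec remained, 2 of 10 against 0.131%. The median log2 difference of the lowest fat depot over the highest other tissue was -0.53 for the 10 genes and -2.00 for all named genes. For the other 7 genes, the highest tissue outside fat was liver (Plin2, Plin3, Plin5, Mgll and G0s2) or muscle (Plin4 and Pnpla2). Without the muscle library, 4 genes passed the 4-fold gap (Plin1, Plin4, Cidec and Lipe), against 0.735% of all named genes. Genes with every depot above every other tissue numbered 5 without liver, 5 without SCAT and 5 without muscle, where the shares of all named genes were 5.41%, 4.24% and 6.41%. Under median ratio and under upper quartile scaling they were also 5, with Plin4 and Pnpla2 added, against 4.26% and 6.17%.

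Because muscle contained adipocyte transcripts, the level of each gene there was expressed as a percentage of VAT and set beside the 6 adipocyte markers. The markers in muscle lay between 4.28% and 12.1% of VAT. Cidec at 4.20% was just below and Plin1 at 7.23% inside that range, whereas the other 8 genes were above it (92.5% of the 13102 named genes with at least 1 FPKM in VAT were), from G0s2 at 14.5%, Lipe at 18.4% and Mgll at 19.6% to Plin2 at 30.8%, Plin4 at 39.0% and Pnpla2 at 66.9%. Plin3 at 118% and Plin5 at 353% exceeded the VAT level itself, but Plin3 did so only under the deposited scaling. In kidney, liver and cortex the markers reached at most 1.25%, 0.177% and 0.273% of VAT. The genes above them numbered 9 of 10 in kidney (all but Cidec), 9 in liver (all but Plin1) and 8 in cortex (all but Plin1 and Cidec), against 97.3%, 97.1% and 97% of named genes. Exceeding the markers was thus common to nearly all genes, and of the 10 the exceptions in these 4 tissues were Plin1 (all but kidney) and Cidec (all but liver).

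**Figure D4:**
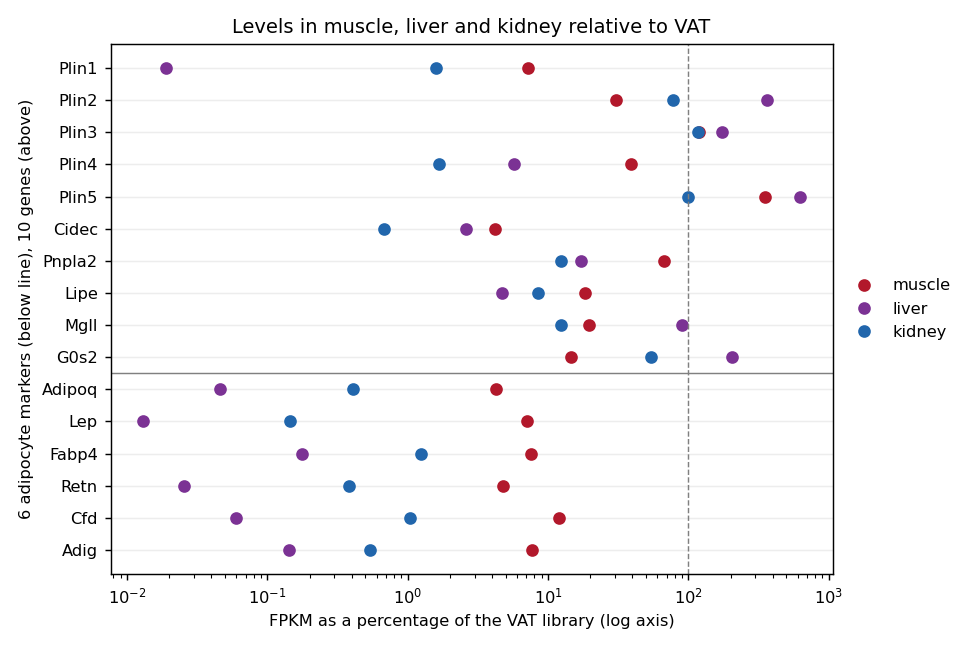
FPKM in muscle, liver and kidney as a percentage of the VAT library on a log axis, for the 10 genes (above the line) and 6 adipocyte markers (below it). The dashed line marks the VAT level, the markers in muscle lie between 4.28% and 12.1%, and Plin1 and Cidec are the only genes of the 10 not above them there.

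Brown and white fat were compared next. BAT was at least 2-fold above both white depots for 8 of 10 genes, all but Plin4 and Cidec, against 24.4% of 15423 named genes tested, and at least 2-fold below both for 0 of 10, against 6.98%. The median log2 difference was 1.64 for BAT minus VAT and 2.30 for BAT minus SCAT, while over all named genes these medians were 0.43 and 0.50. The median named gene was thus itself higher in BAT under the deposited scaling. After upper quartile scaling 4 of the 8 genes still passed (Plin1, Plin2, Plin3 and Plin5), against 11.3% of all named genes, while Pnpla2, Lipe and Mgll were less than 2-fold above VAT and G0s2 less than 2-fold above SCAT, and Plin4 passed in the other direction, against 15.4%. Under median ratio scaling the same 8 genes passed, against 15.4% of all named genes, and Plin4 passed in the other direction, against 11.2%.

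**Figure D5:**
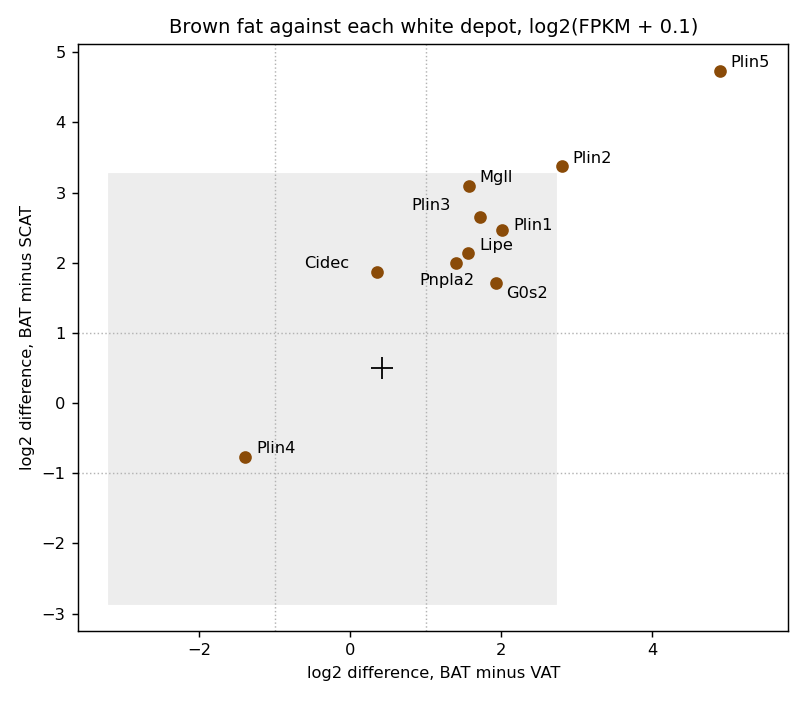
Log2 difference of BAT over VAT (horizontal) and over SCAT (vertical) for the 10 genes, on log2(FPKM + 0.1). The grey box spans percentiles 5 to 95 of all named genes, the cross marks their medians (0.43 and 0.50) and dotted lines mark 2-fold. Plin2 and Plin5 lie beyond the box on both axes, and Plin4 is the only gene below 0.

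Taking 1 tissue against all others, 2 of 10 genes were enriched at least 4-fold in a single tissue (Plin1 and Plin5, both in BAT). The share of all named genes was 23% for any tissue and 0.765% for BAT. Plin1 passed narrowly, at 4.03-fold over VAT, and did not pass under median ratio or upper quartile scaling. Between the white depots, 8 of 10 genes were higher in VAT, against 55.4% of 14478 named genes tested, with Plin5 and G0s2 slightly higher in SCAT (1.11-fold and 1.17-fold). Only Cidec and Mgll reached 2-fold, 2 of 10 against 14.8%, and none reached it in SCAT, against 10.8%. The adipocyte markers Adipoq, Retn, Adig, Lep and Fabp4 were also lower in SCAT, at 33.2% to 55.0% of VAT, while Cfd was at 114%. Cidec and Mgll, both at 34.7%, lay within the range of these markers, whose part in the white depot differences was not tested.

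The genes that act on the droplet together with these 10 were then described from 3 lists of droplet partners, triacylglycerol synthesis and lipolysis control. Of 17 droplet partners, 11 were at least 2-fold higher in BAT than in both white depots, against 24.4% of all named genes, where 1 of the 11 was the shared locus of Cideb and Dhrs1. Enrichment of at least 4-fold in a single tissue was seen for 5 of 17, a share near the 23% of all named genes. Cidea, a relative of Cidec found in brown adipocytes, had 832 FPKM in BAT and at most 3.10 FPKM elsewhere. Bscl2 (seipin, a droplet biogenesis protein) had 79.5 FPKM in BAT against 19.7 FPKM in VAT and did not pass under either other scaling, and Pnpla3, a relative of Pnpla2, had 9.99 FPKM in BAT against 1.41 FPKM in VAT. Outside fat, Fitm1 was enriched in muscle at 48.6 FPKM and Hsd17b13, a droplet protein of hepatocytes, in liver at 205 FPKM. Ces1d, a triacylglycerol hydrolase, had 838 FPKM in BAT and 463 FPKM in liver, more than any of the 3 lipases in either tissue. Its relative Ces1f had its highest level in kidney (387 FPKM), and the locus of Cideb, a relative of Cidec, and Dhrs1, which share 1 value in the table, in liver (124 FPKM). The median log2 difference of BAT minus VAT was 1.53 over the 17 genes, against 0.43 over all named genes.

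Abhd5, the coactivator of Pnpla2 that Plin1 holds in resting adipocytes, had 48.5 FPKM in BAT, 15.2 FPKM in muscle, 14.3 FPKM in VAT, 10.3 FPKM in SCAT, 8.52 FPKM in liver, 8.33 FPKM in kidney and 2.28 FPKM in cortex. It was highest in BAT, like Plin1 and Pnpla2. Muscle was above both white depots for Abhd5 under the deposited scaling. Hilpda, another inhibitor of Pnpla2, had its highest level in VAT (3.05 FPKM).

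Of 13 genes of triacylglycerol synthesis, 12 were expressed in the depots, and 8 of these were at least 2-fold higher in BAT than in both white depots (24.4% of all named genes). The acyltransferases Agpat2 (473 FPKM), Dgat2 (556 FPKM) and Dgat1 (163 FPKM) were enriched in BAT, and Mogat1 (90.8 FPKM) and Mogat2 (5.67 FPKM) in kidney, which makes 5 of 13 enriched in a single tissue against 23% of all named genes. The shares of all named genes enriched in BAT and in kidney were 0.765% and 2.55%. Mogat2 did not pass under either other scaling, and Dgat2 did not under median ratio scaling. All 12 were higher in VAT than in SCAT, against 55.4% of all named genes, and 4 of them were so at least 2-fold (Gpam, Lpin1, Mogat1 and Mogat2), against 14.8%. Lpin1, a phosphatidate phosphatase, was highest in muscle at 130 FPKM, and Gpam, which starts glycerolipid synthesis, had 132 FPKM in BAT and 72.5 FPKM in muscle. Agpat3 was highest in BAT at 218 FPKM. The median log2 difference of BAT minus VAT over this list was 2.33.

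Among 15 genes of lipolysis control, 14 reached 1 FPKM, and 9 of them were at least 2-fold higher in BAT than in both white depots (24.4% of all named genes). In 5 genes, against 3.11% of all named genes, every fat depot was above every other tissue: Adrb3, the adipocyte β-adrenergic receptor, Hcar1, the lactate receptor, Prkar2b, a regulatory subunit of protein kinase A, Pde3b, which degrades cAMP, and Pparg, the adipogenic nuclear receptor. Prkar2b had 373 FPKM in BAT, 60.2 FPKM in VAT, 41.3 FPKM in SCAT and at most 6.87 FPKM elsewhere. Pparg had 158 FPKM in BAT, 49.8 FPKM in VAT and 41.4 FPKM in SCAT against 9.69 FPKM in liver, and these 2 of 14 genes passed the 4-fold gap, against 0.131% of all named genes. Prkar2b was also enriched in BAT, except under upper quartile scaling. The catalytic subunit Prkacb was enriched in cortex at 110 FPKM and was the 1 gene of the 14 with every fat depot below every other tissue (3.46% of all named genes), which it was under neither other scaling, and Ppara, the receptor for fatty acid oxidation genes, was highest in liver (73.9 FPKM), followed by BAT (45.6 FPKM). Pde3b (134 FPKM) and the catalytic subunit Prkaca (80.9 FPKM) were highest in BAT. The median log2 difference of BAT minus VAT over the 14 genes was 1.44.

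Profiles over the 7 tissues were finally compared after centring each gene on its own mean, with the root mean square (RMS) log2 difference as the measure of likeness and 8035 protein-coding genes of at least 10 FPKM outside the 10 as candidates. Plin1 was nearest to Fabp4 (0.66), Adipoq (0.75) and Fabp9 (0.78). For Plin5 the nearest were Slc25a20 (0.65), Acadl (0.83) and Etfa (0.84), genes of mitochondrial fatty acid oxidation. Plin2 was nearest to Ephx2 (0.78), Ces1d (0.90) and Acp5 (0.94), but the other droplet gene G0s2 was nearer than all of them at 0.72.

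Plin4 was nearest to Pf4 (0.35), Gpnmb (0.49) and Clec10a (0.55), genes known from platelets and macrophages. The summed level of 5 macrophage markers was 127 FPKM in SCAT, 109 FPKM in VAT, 74.7 FPKM in BAT and 65.8 FPKM in liver. It was 62.6 FPKM in muscle, 13.1 FPKM in kidney and 11.8 FPKM in cortex, and its part in the Plin4 profile was not tested. Plin3 was nearest to Bcat2 (0.18), Anapc13 (0.30) and Vegfa (0.32). As many as 3607 candidates were nearer to Plin3 than Mgll, the nearest of the 10 genes.

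Cidec had no close neighbour, with Ifi27l2a at 1.08, Fabp9 at 1.41 and Postn at 1.43. Lipe (Ccl7 0.50, Ccdc69 0.57, Vim 0.67) and Pnpla2 (Cd300lg 0.57, Eif4ebp1 0.58, Postn 0.78) were 0.94 from each other. Mgll was nearest to Ormdl3 (0.61), Zfp982 (0.62) and Ap3s1 (0.66), where the Zfp982 locus carries further gene names. Outside the 10 genes, G0s2 was nearest to Acp5 (0.55), Angptl4 (0.79), which encodes an inhibitor of lipoprotein lipase, and Tspo (0.80), while Plin2 at 0.72 lay between Acp5 and Angptl4.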

How the data were processed

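The members and gene lists were chosen with earlier results of these data known. Per the labels, RNA was extracted with peqGOLD TriFast, depleted of rRNA and made into directional libraries, which were sequenced as read pairs. According to the submitters' processing notes and the methods of the study, the authors removed rRNA reads with Bowtie2 2.2.9, aligned to GRCm38 (mm10) with STAR 2.6.0c, assembled transcripts with Cufflinks 2.2.1 and compared the tissues with Cuffdiff. The authors deposited 1 gene-level table of FPKM with 94339 loci in 21 pairwise comparisons. Cuffdiff's scaling between libraries and library type are not given in the sources used here. Its fold change, test, p-value and q-value columns were not used. The table holds no counts. Low FPKMs fell in steps, but reads per gene could not be recovered, so the depth and precision of each library are unknown.

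Names were split at commas, 151 loci with status FAIL were dropped, 145 zeros of status LOWDATA were set missing, and for several loci of a name the one with the highest FPKM was used. Differences are on log2(FPKM + 0.1), which understates those of low genes, and ratios within a library are of FPKM itself. Features needed at least 1 FPKM in a compared tissue. Genes named beside the 10 are the 3 nearest profiles and, from each list, those called in all fat or 1 tissue and up to 3 others of highest FPKM. Abhd5, Hilpda, Adrb3, Hcar1 and the markers stand beside that rule and were chosen after their values were seen. Gene positions are from GENCODE M21, and the promoters from RefSeq. The table has no strand column, and strand was read from the order of its loci. The 4-fold rule for fat was run on simulated data with genes raised well above it. This checks the code and not the precision of single libraries. The rules for enrichment in a single tissue and for VAT against SCAT were not covered. Alternatives covered pseudocount, scaling, minimum FPKM, fold, treatment of loci and zeros, and leaving out each library. The shares of all named genes and the calls of the 3 lists under other scalings or folds, or without a library, were added after the data were seen. Python 3.11.15, pandas 2.3.3, NumPy 2.4.6 and matplotlib 3.10.9 were used.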

Additional observations from a re-analysis of the deposited data

Results flagged for a closer look

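The table holds a second locus for 7 of the 10 names, and for 6 of these it lies opposite to the annotated strand and entered the results above only where both loci of a name were summed. In BAT, where each was highest, it had 110.3 FPKM for Plin1, 104.0 FPKM for Plin2, 263 FPKM for Cidec, 100.5 FPKM for G0s2, 47.8 FPKM for Mgll and 5.73 FPKM for Plin3. Relative to the locus on the annotated strand, it was 14.9% to 17.1% over the 7 tissues for Mgll, 15.2% to 22.2% for Plin2, 21.6% to 34.2% for Plin3 and 30.7% to 47.7% for Cidec. For Plin1 it was 26.7% to 32.3% in the fat depots and reached 107% in liver, where both loci were near 0.02 FPKM. For G0s2 it was 86.3% to 112% of the annotated locus. The source of this signal was not tested. By the order in which the table lists its loci, 87.2% of those used for named genes lie on their annotated strand.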

How the results depend on the processing

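Counts of genes called among the 10 were recomputed under other settings. A count within 1.5 times the reported one was taken as unchanged. The counts of genes above the adipocyte markers were not recomputed. Nor was the count of triacylglycerol synthesis genes higher in VAT than in SCAT by any amount. Of the alternatives for values within a library, only summing the loci of a name could move them, since all 10 genes were read from loci with 1 name on the annotated strand. It kept the leading perilipin in 7 of 7 tissues and left 14 of 21 ratios within 1.5-fold, all but the 7 of G0s2 over Pnpla2. Under median ratio scaling, genes with every fat depot above every other tissue numbered 5, genes enriched in 1 tissue 1 (Plin5) and genes lower in BAT than in both white depots 1 (Plin4). The log2 gap of the lowest fat depot then became positive for Plin4 (0.048) and Pnpla2 (0.52). Under upper quartile scaling the same 3 counts were 5, 1 and 1, and 4 genes were higher in BAT. These scalings moved libraries by up to 0.49 on the log2 scale (SCAT). With 8-fold for 4-fold and 4-fold for 2-fold, 0 genes were enriched in 1 tissue, 3 were higher in BAT and 0 were higher in VAT, against 15.1%, 8.45% and 6.36% of all named genes. With 2-fold for 4-fold and 1.5-fold for 2-fold, 5 were enriched, 1 was lower in BAT and 5 were higher in VAT, against 40.3%, 11.5% and 26.7%. Set against VAT alone, a comparison added after the data were seen, 1 gene (Plin4) was lower in BAT.

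With the FPKMs of both loci summed, the log2 ratio of G0s2 over Pnpla2 was 2.89 in liver, 1.34 in kidney and 0.39 in cortex, and -0.33 in BAT, -0.042 in SCAT, -0.79 in VAT and -3.02 in muscle, since the second G0s2 locus enters the sum. When each library was left out in turn, genes with a 4-fold gap between fat and other tissues numbered 2 to 4 (3 without SCAT, against 0.238% of all named genes, and 4 without muscle), genes with fat above all others 3 to 5 (4 without BAT, against 6.63%, and 5 without liver, without SCAT or without muscle), and genes with fat below all others 0 to 0. For the other changes the cause was not tested. No paired analysis was possible because no tissue has more than 1 library. With no replicates and no fragment counts, differences of small size, such as those between VAT and SCAT, cannot be set against any measured error.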
